A study of Danio rerio with 19 samples.

Results

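Genes of cholesterol and bile acid synthesis were followed across 4 RNA libraries of zebrafish gametes and early embryos. They were chosen by name, 10 in all, from enzymes that make cholesterol and from the enzyme that opens its conversion to bile acids. A row of that name was present for 8 of the 10 among 14244 gene names: hmgcs1, hmgcra, fdps, lss, cyp51, msmo1, dhcr7 and cyp7a1a. No row carried the name sqle or fdft1, and rows under older names of sqlea and fdft1 are given below with the rest of the pathway. msmo1 and cyp7a1a entered the set because their ratios between these same libraries were extreme, so their levels are a description and carry no test.

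Cells make cholesterol from acetyl units through mevalonate, farnesyl diphosphate, squalene and lanosterol, and every membrane of a growing embryo contains it. When sterol runs low, the transcription factor encoded by srebf2 switches on most genes of the pathway in vertebrate cells, which is why these genes are often seen to move together. Bile acids are made from cholesterol mainly in the liver, and CYP7A1 is the rate-limiting enzyme of the classic route in mammals.

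The study compared gametes and embryos of the Tubingen strain, all without a stated genetic change or treatment. Its RNA libraries came from sperm, egg, blastula embryos (1k-cell) and embryos at the onset of gastrulation (germ ring), 1 library for each. Protocols given for other samples of the series describe sperm freed by disrupting the testis and unfertilized eggs squeezed from females after spawning. The RNA was selected by its poly(A) tail, and the ages of the animals are not stated. With 1 library per group no difference has a replicate check, no p-value can be given, and the 95% intervals below (exact, Clopper-Pearson, on the ratio of reads) cover counting error only. The values are TMM-normalized read counts made by the authors, called normalized counts here. They are not corrected for gene length, so levels are compared between libraries for 1 gene and not between genes.

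The libraries held 9241829 (egg) to 24256918 (1k-cell) reads, and 1 read was worth 0.951 to 1.98 normalized counts. Sperm tail markers had a summed normalized count of 131818 in sperm and 91.3 in egg. Oocyte markers did not separate the gametes as labelled, since 7 of 12 were higher in sperm than in egg (zp3b, an egg coat gene, at 58594 against 1137) and their median was 14909.8 in sperm and 1103 in egg. Markers of other cells also had reads in the sperm library. All 12 oocyte markers, all 21 liver markers and 26 of 27 epidermis markers were at a normalized count of 10 or more. So were 12319 of all 14244 gene names, and the marker counts are near that share. In sperm the median was 267 for the liver list and 228 for the epidermis list, below the 342 of all genes. The follicle list (63.1) and the yolk syncytial list (40.7) were also below it. Red blood cell markers were above it, with a median of 720 in sperm and 0 in egg, and sums of 93410 and 59.5. Testis somatic markers, with a median of 346 in sperm and 3.97 in egg, were close to it in sperm. In the red blood cell list ba1 and ba2 had the same value in every library (23288 in sperm). The sum of that list may thus hold the same reads under both names. Set against the median of all genes, list medians compare different genes without correction for length. They do not measure how much of such cells was present. The part of such cells in the sperm values was not tested.

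The genes differed in the library that held their highest value. Of the 8 genes, 5 (hmgcra, cyp51, msmo1, dhcr7 and cyp7a1a) had their highest normalized count in egg, hmgcs1 and fdps had it in 1k-cell embryos, and lss had it in sperm. Over all 12681 genes at 10 or more in any library, 11.7% were highest in egg. Under median-of-ratios scaling of the same reads all 8 were highest in egg, against 27.1% of all genes. The members were picked with ratios between these libraries known, so these counts only describe the set. A lower value in these bulk samples can mean fewer cells of a type or less RNA per cell. After poly(A) selection it can also mean RNA whose tail was too short to be captured. These cannot be told apart here.

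**Figure D1:**
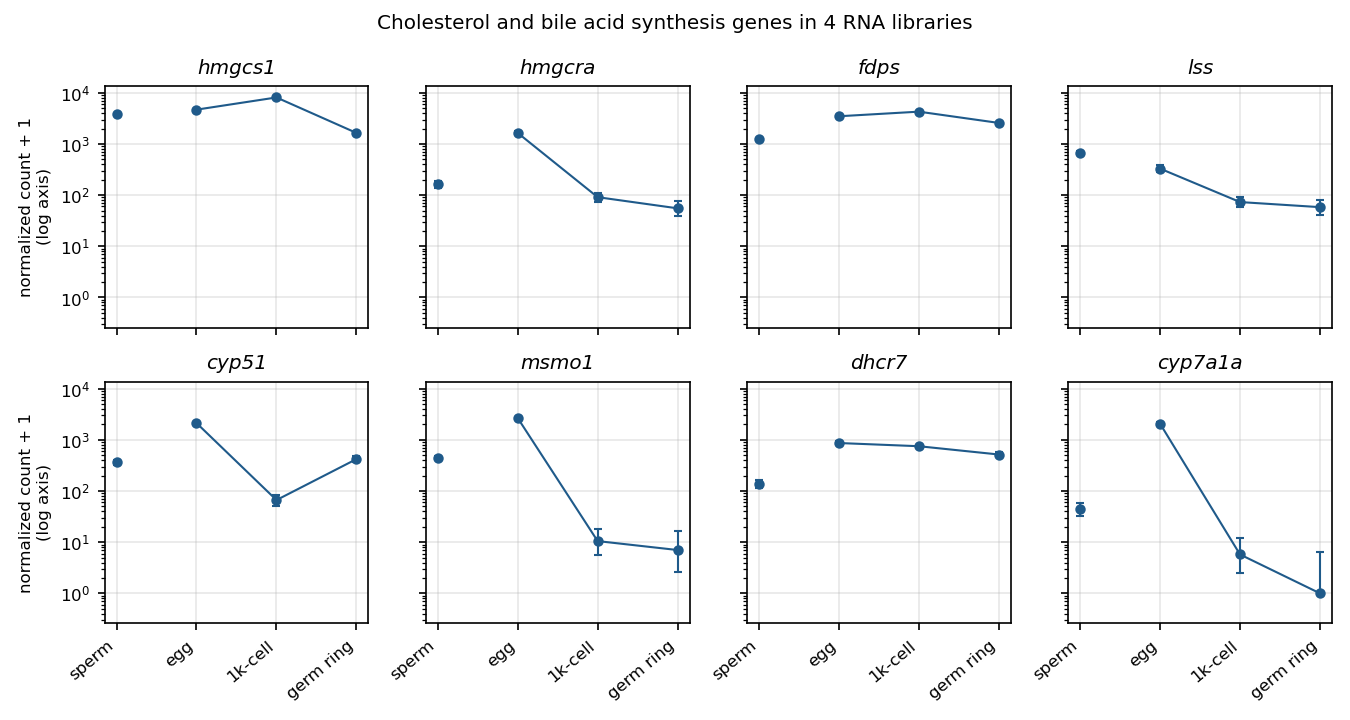
Normalized count plus 1 (log axis) of the 8 genes in the 4 RNA libraries. Points are single libraries, bars are exact 95% Poisson counting intervals, and the line joins egg, 1k-cell and germ ring. msmo1 and cyp7a1a went from 2681 and 2076 in egg to 9.51 and 4.75 in 1k-cell embryos, whereas dhcr7 went from 867 to 751.

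The enzymes of the mevalonate part did not share 1 pattern. hmgcs1 encodes the synthase that forms HMG-CoA. Its normalized count was 3771 (sperm), 4689.9 (egg), 8124 (1k-cell) and 1644 (germ ring). It was 4.94-fold lower at the germ ring than in 1k-cell embryos (95% counting interval 4.64 to 5.27). Its rise of 1.73-fold from egg to the 1k-cell stage rests on the authors' scaling, because the log2 ratio of 0.79 became -0.49 under median-of-ratios scaling. hmgcra encodes HMG-CoA reductase, the regulated step of the pathway and the target of statins. It had 161 in sperm, 1647 in egg, 90.3 in 1k-cell embryos and 54.2 in germ ring embryos. Egg was 10.2-fold above sperm (8.64 to 12.2), and the 1k-cell stage was 18.2-fold below egg (14.7 to 22.8). The 2 embryo libraries differed less, with the germ ring 1.67-fold lower (1.12 to 2.52).

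The second reductase gene, hmgcrb, is a paralog and no member of the set, but it gives hmgcra its context. It had 1514 in sperm, 851 in egg, 3505 in 1k-cell embryos and 2396 in germ ring embryos. It was higher in 1k-cell embryos than in egg, where hmgcra was lower. Its lowest value was in egg only on some scalings, because the log2 ratio of egg to sperm was -0.83 as deposited and 0.44 under median-of-ratios scaling. How reads were assigned between the 2 similar genes is not given in the sources used here, so part of either value could belong to the other. fdps makes farnesyl diphosphate, the branch point to sterols, prenyl groups, dolichol and ubiquinone. It had 1267 in sperm, 3483 in egg, 4286 in 1k-cell embryos and 2579 in germ ring embryos. Its values in egg and both embryo libraries lay within 2-fold of one another on the authors' scaling, and sperm was 2.75-fold below egg (2.56 to 2.96). Under median-of-ratios scaling the log2 ratio of fdps to egg was -0.98 in 1k-cell embryos and -1.20 at the germ ring, the latter past 2-fold.

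Among the members, the enzymes of the sterol ring (lss, cyp51 and msmo1, but not dhcr7) were more than 2-fold lower in 1k-cell embryos than in egg. The amounts were very different. Ring enzymes outside the set did not all follow, since nsdhl and lbr, given below, were higher. lss closes squalene epoxide into lanosterol. It had 661 in sperm, 329 in egg, 72.3 in 1k-cell embryos and 57.3 in germ ring embryos. It was 4.56-fold lower in 1k-cell embryos than in egg (3.46 to 6.06), and the 2 embryo libraries could not be told apart at this depth, with an interval of the ratio from 0.522 to 1.18. Sperm exceeded egg 2.01-fold, a direction that turned under median-of-ratios scaling (log2 ratio of egg to sperm -1.002 as deposited and 0.26).

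cyp51 encodes the cytochrome P450 that removes a methyl group from lanosterol. It had 365 in sperm, 2136 in egg, 65.6 in 1k-cell embryos and 420.4 in germ ring embryos. It was 32.6-fold lower in 1k-cell embryos than in egg (25.5 to 42.2). It then rose 6.41-fold to the germ ring (4.91 to 8.47), the only one of the 8 genes to gain 2-fold or more in that step. Its germ ring and sperm values did not differ beyond counting error (ratio 1.15, interval 0.983 to 1.35).

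msmo1 encodes the methyl sterol oxidase that acts after cyp51. It had 447 in sperm, 2681 in egg, 9.51 in 1k-cell embryos and 6.03 in germ ring embryos, which are 450, 1351, 10 and 4 reads. It was 282-fold lower in 1k-cell embryos than in egg (153 to 589), and 21 of 10685 genes, msmo1 included, had a ratio that low. Both embryo libraries were also far below sperm, by 47.0-fold (25.3 to 98.7) and 74.2-fold (28.8 to 273). The difference between the 2 embryo libraries was not detectable, with an interval of the ratio from 0.145 to 2.198. Of these neighbouring steps, cyp51 was thus higher in germ ring than in 1k-cell embryos, and msmo1 was low in both.

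dhcr7 carries out the last step to cholesterol and is the gene mutated in human Smith-Lemli-Opitz syndrome. It had 137 in sperm, 867 in egg, 751 in 1k-cell embryos and 517 in germ ring embryos. Egg was 6.33-fold above sperm (5.21 to 7.72). The decline across the egg and embryo libraries stayed within 2-fold on the authors' scaling, at 1.15-fold lower from egg to the 1k-cell stage (1.03 to 1.2995) and 1.45-fold lower from there to the germ ring (1.28 to 1.65). Under median-of-ratios scaling dhcr7 was more than 2-fold lower in both embryo libraries than in egg, with log2 ratios of -1.49 and -1.51. Its 4 values formed a pattern close to that of fdps, with a distance of 0.88 between their centred log2 profiles, while msmo1 and dhcr7 lay 7.85 apart.

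cyp7a1a, the zebrafish gene for the bile acid enzyme, has 2 entries in each library, and the entry with the higher sum was used. It had 42.7 in sperm, 2076 in egg, 4.75 in 1k-cell embryos and no read in germ ring embryos, where 3 reads would have been 4.52. Egg stood above sperm with a counting interval of 35.8 to 67.6 for the fold, and above the 1k-cell stage with 187 to 1348. At the germ ring stage cyp7a1a was at least 459-fold below egg if 3 reads are taken there, and its exact 95% interval starts at 373-fold. The 5 reads in 1k-cell embryos and none at the germ ring did not differ beyond counting error. The other entry, which may be a second gene model, had 63.6, 129, 13.3 and 0 in the same order. Both entries were thus highest in egg, but their egg to sperm contrast was very unequal.

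The calls of the set are given here beside the shares over all genes. From sperm to egg, 6 of the 8 genes were at least 2-fold higher, against 14.3% of 12443 genes tested, and 1 (lss) was lower, against 61.3%. From egg to the 1k-cell stage 5 were at least 2-fold lower, against 12.5% of 10685 genes, and none was higher, against 54.7%. From egg to the germ ring 6 were lower and none higher, against 19.8% and 48.1% of 10971 genes. Because the members were picked with these ratios known, the counts describe the set, and nothing is read from the contrast with the background. The 3 comparisons share the egg library. Against sperm, 1k-cell embryos had 3 of the 8 genes higher and 4 lower, where 25.6% and 40% of 12453 genes were, and germ ring embryos had 2 higher and 5 lower, where 19.4% and 46.3% of 12582 genes were.

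From the 1k-cell stage to the germ ring, 6 genes reached the floor of 10 in either library. Of these 1 (cyp51) was at least 2-fold higher and 1 (hmgcs1) lower, against 16% and 34.2% of 10917 genes. msmo1 and cyp7a1a were under the floor in both libraries.

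Scaling matters for these counts, since the median gene had a log2 ratio of -1.80 in egg against sperm and 1.24 in 1k-cell embryos against egg. Relative to that median, every one of the 8 genes was high in egg against sperm, by 0.80 (lss) to 7.37 (cyp7a1a) log2 units. At the 1k-cell stage against egg every one was low, from -0.45 (hmgcs1) to -9.74 (cyp7a1a). Under median-of-ratios scaling egg against sperm had 29.7% of all genes higher and 43.0% lower, and 1k-cell embryos against egg had 29.8% higher and 33.8% lower. The same scaling gave 23.7% and 22.3% for the germ ring against the 1k-cell stage, and 34.7% and 32.1% for the germ ring against egg. With it, 7 of the 8 genes were at least 2-fold higher in egg than in sperm and none lower, 6 were lower in 1k-cell embryos than in egg, and all 8 were lower in germ ring embryos than in egg.

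**Figure D2:**
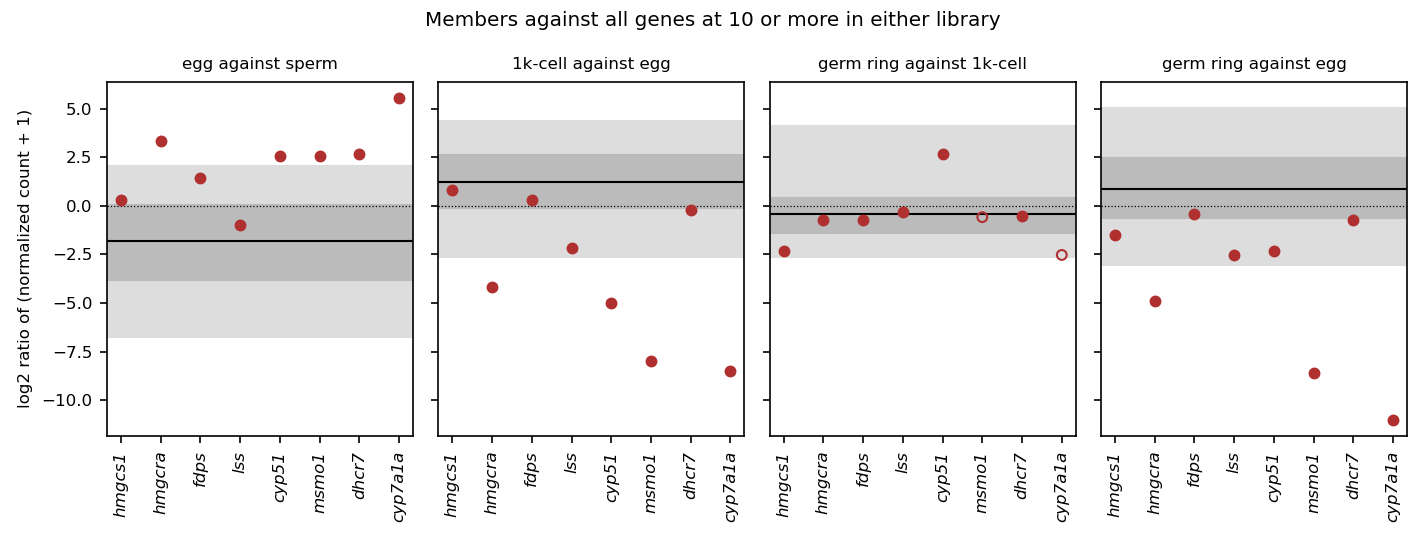
Log2 ratio of normalized count plus 1 for the 8 genes (red points, open where both libraries were under 10) in 4 comparisons. Grey bands hold the middle 50% and 90% of all genes at 10 or more in either library, the solid line is their median and the dotted line is 0. cyp7a1a, msmo1, cyp51 and hmgcra lie below the bands in 1k-cell embryos against egg, with log2 ratios of -8.50, -8.00, -5.00 and -4.17.

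The other enzymes of the route gave a wider view. Of 25 names on a list of mevalonate and cholesterol synthesis genes 23 had a row, and 16 of these were not members. In egg 7 of the 16 were at least 2-fold higher than in sperm and 3 were lower, where 14.3% and 61.3% of all genes were. The median log2 ratio of the 16 was 0.45, against -1.80 over all genes. After median-of-ratios scaling the counts were 11 and 3, beside 29.7% and 43.0% of all genes. hsd17b7, which acts beside msmo1 in removing the ring's methyl groups, had 115 in egg and 13.9 in sperm, 8.28-fold higher (4.56 to 16.1). The row now named sqlea, for the squalene epoxidase step, had 74.5 in sperm, 534 in egg, 88.4 in 1k-cell embryos and 264 in germ ring embryos. Its value in 1k-cell embryos was below both egg and germ ring, as for cyp51. The row now named fdft1, for squalene synthase, had 377.5, 919, 933 and 378 in the same order. It stayed level from egg to blastula on the authors' scaling only as deposited (log2 ratio 0.02). Relative to the median of all genes that ratio was -1.22. The lower genes in egg included tm7sf2, a sterol reductase gene, at 411 against 3799 in sperm, and the row now named mvd, for the decarboxylase that ends the mevalonate part, at 127 against 873.

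From egg to the 1k-cell stage 3 of the 16 rose at least 2-fold and 4 fell, where 54.7% and 12.5% of all genes did. The median log2 ratio of the 16 was -0.29, against 1.24 over all genes. Median-of-ratios scaling made the counts 2 and 11, beside 29.8% and 33.8% of all genes. The methyl-group step was split. nsdhl, which follows msmo1 in the same cycle, was 8.24-fold higher in 1k-cell embryos (2569 against 312, interval 7.02 to 9.75), while msmo1 and hsd17b7 (7.61 against 115) were lower. ebp, a sterol isomerase gene, had 1290.1 in egg and 106 in 1k-cell embryos. lbr, whose protein is both a sterol reductase and the lamin B receptor of the nuclear envelope, was 5.02-fold higher (6110 against 1217).

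At the germ ring stage against the 1k-cell stage 2 of 15 tested were at least 2-fold higher and 7 lower (2 and 3 under median-of-ratios scaling). Of all genes 16% were higher and 34.2% lower (23.7% and 22.3% under that scaling). idi1, the isomerase that supplies the second building block for farnesyl diphosphate, was 3.88-fold higher (9793 against 2521, interval 3.71 to 4.06). nsdhl was 10.6-fold lower, at 243 from 2569. Against egg 9 of the 16 were lower at the germ ring and 3 higher (12 and 1 under median-of-ratios scaling). Of all genes 19.8% were lower and 48.1% higher (32.1% and 34.7% under that scaling). hsd17b7, with 1 read at the germ ring, was the lowest of the 16, 76.4-fold below egg with an interval of 13.2 to 3069.

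**Figure D3:**
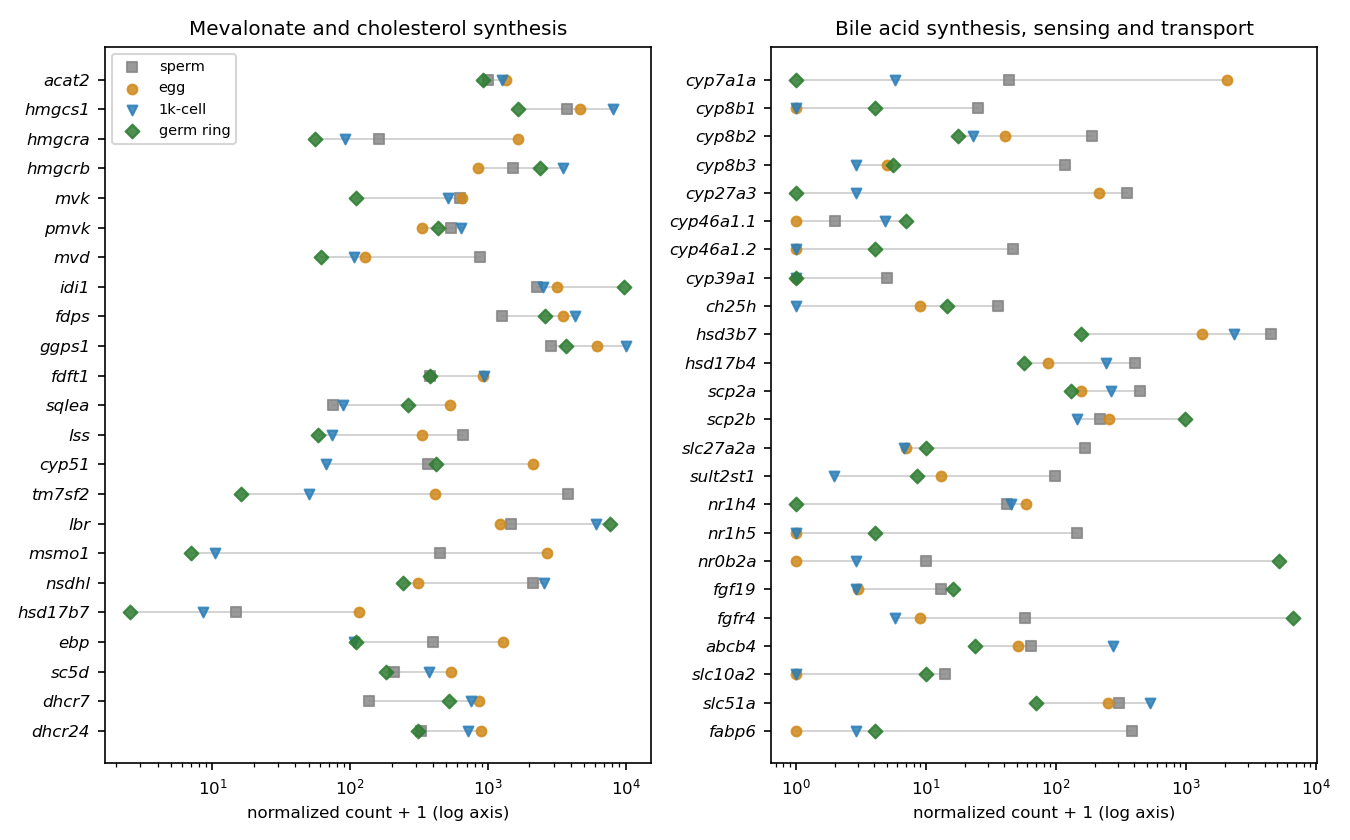
Normalized count plus 1 (log axis) of listed genes in sperm (squares), egg (circles), 1k-cell (triangles) and germ ring (diamonds), 1 library each; levels are not comparable between genes. On the left, msmo1 spans from 6.03 to 2681; on the right, cyp7a1a is highest in egg, while nr0b2a and fgfr4 reach 5141 and 6572 in germ ring embryos.

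Genes that sense, take up or export sterol formed a separate list of 30 names, 23 of them with a row. srebf2, the sterol-sensing activator, had 1587 in sperm, 5212 in egg, 2817 in 1k-cell embryos and 1455 in germ ring embryos. insig2, which holds that activator back in the endoplasmic reticulum when sterol is plentiful, had only 3 reads in egg. Its normalized count was 5.95 in egg and 308 (324 reads) at the 1k-cell stage, a ratio of 51.7 with an interval of 17.5 to 252. mbtps2, a protease that releases the activator, followed it with 33.7 in egg and 836 in 1k-cell embryos, 24.8-fold higher (15.4 to 42.7). mylipa, a ligase that marks the LDL receptor for destruction in mammals, had 48496 in egg, 27902 in 1k-cell embryos and 2281 in germ ring embryos. npc2, which carries cholesterol out of lysosomes, was 6.22-fold higher in egg (19083) than in sperm (3066). The ldlra row, for the LDL receptor that takes up cholesterol, had 125, 141, 59.9 and 7.53 from sperm to germ ring. Over the list, 10 of 20 tested genes were at least 2-fold higher and 5 lower in 1k-cell embryos than in egg. Over all genes 54.7% were higher and 12.5% lower, so the share of higher genes was near that of all genes. Under median-of-ratios scaling the counts turned to 4 and 9, beside 29.8% and 33.8% of all genes.

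Of the sterol exporter genes on the list, abca1a and abca1b rose from 1k-cell to germ ring embryos, abcg1 fell by 2-fold or more (68.5 to 31.6), and abcg5 and abcg8 had no read in either. abca1b had 171 in sperm, 75.4 in egg, 18.1 in 1k-cell embryos and 1941 in germ ring embryos, 107-fold above the 1k-cell stage (68.5 to 179). abca1a had 13.3 in 1k-cell embryos and 152 at the germ ring, 11.4-fold higher (6.51 to 21.7). They were the 2 genes of 19 tested that rose at least 2-fold, and 7 fell (3 and 3 under median-of-ratios scaling). Of all genes 16% rose and 34.2% fell (23.7% and 22.3% under that scaling), and the counts on the list are near these shares. The stard4 row, for an intracellular sterol carrier, had 123 in egg, no read in 1k-cell embryos (at least 43.1-fold lower) and 3 reads in germ ring embryos.

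The other bile acid enzymes mostly had their highest value in sperm, not in egg. Of 26 names on the list 15 had a row and 13 reached 10 in any library; 11 of these 13 had their highest value in sperm, as did 43.5% of all genes, and cyp7a1a alone had it in egg. Over all genes 11.7% were highest in egg. Under median-of-ratios scaling 10 were highest in sperm and 2 in egg, beside 35.5% and 27.1% of all genes. In egg against sperm 1 of 13 (cyp7a1a) was at least 2-fold higher and 10 were lower, where 14.3% and 61.3% of all genes were. Median-of-ratios scaling made the counts 2 and 5, beside 29.7% and 43.0% of all genes, so the lower count was then near that share. cyp8b1, which sets the ratio of bile acid types in mammals, and cyp46a1.2, a cholesterol hydroxylase gene, had no read in egg and were at least 4.00-fold and 7.67-fold lower than in sperm. The cyp27a3 row, for a sterol hydroxylase gene, was also nearly without reads in the embryos, with 351 in sperm, 214 in egg, 2 reads in 1k-cell embryos and none at the germ ring. It was 113-fold lower in 1k-cell embryos than in egg, with an interval of 30.5 to 943. hsd3b7, which acts directly after cyp7a1a in the classic route, instead had 1326 in egg, 2334 in 1k-cell embryos and 154 at the germ ring. hsd17b4, a peroxisomal enzyme gene, had 85.3 in egg and 404 in sperm, and ch25h, a cholesterol hydroxylase gene, had no read in 1k-cell and 13.6 in germ ring embryos. scp2b, of peroxisomal side-chain shortening and sterol transfer, rose 6.75-fold from the 1k-cell stage to the germ ring (145 to 975, interval 5.64 to 8.10).

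Of the genes of bile acid sensing and transport, 2 rose steeply in the gastrula. From sperm to egg 5 of 8 tested genes on the list fell by 2-fold or more and none rose. Of all genes 61.3% fell and 14.3% rose, so the share of falling genes was near that of all genes. Under median-of-ratios scaling 3 of 6 fell and 1 rose, beside 43.0% and 29.7% of all genes. Low values were not particular to egg, since nr1h5, nr0b2a, fgf19, fabp6 and fgfr4 had 0 to 4.75 in 1k-cell embryos. nr0b2a, the zebrafish counterpart of the nuclear receptor SHP that represses CYP7A1 in mammalian liver, had 8.94 in sperm, none in egg, 1.90 (2 reads) in 1k-cell embryos and 5141 in germ ring embryos. The ratio of the last 2 was 2703 with an interval of 748 to 22332. fgfr4, the receptor through which FGF19 lowers CYP7A1 in mammals, had 56.6, 7.94, 4.75 and 6572, 1382-fold higher at the germ ring than in 1k-cell embryos (592 to 4260). fgf19 itself had 11.9, 1.98, 1.90 and 15.1. nr1h4, the bile acid receptor gene FXR, had 40.7, 57.6 and 43.7 in sperm, egg and 1k-cell and no read in germ ring embryos, at least 9.68-fold lower than in 1k-cell embryos. fabp6, which binds bile acids inside ileal cells in mammals, and nr1h5, a receptor gene related to nr1h4, had no read in egg and 383 and 144 in sperm. Among transporters, abcb4, the phospholipid exporter of bile, had 49.6 in egg, 271 in 1k-cell and 22.6 in germ ring embryos, and the slc51a row, for a bile acid exporter subunit, had 250.1, 528 and 69.3. From 1k-cell to germ ring embryos 3 of 6 tested genes on the list rose at least 2-fold and 3 fell. Of all genes 16% rose and 34.2% fell.

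Yolk syncytial layer markers were high in the same germ ring library, with 7 of 8 at 10 or more, as were 10461 of all 14244 gene names. Their summed normalized count was 60617, against 147 in 1k-cell embryos. apoeb alone made up 52943 of that sum and stood at 7411 in egg, while apobb.1 (16.6) and slc40a1 (57.3) were low and apoa4a had no read. Their part in the values of nr0b2a, fgfr4 and abca1b was not tested.

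Other products branch off at farnesyl diphosphate. Of 14 genes of prenylation, dolichol and ubiquinone synthesis egg held 8 at 2-fold or more below sperm, where 61.3% of all genes were, and none above. In 1k-cell embryos 9 of the 14 stood above egg, where 54.7% of all genes did, and none below. These shares are near those of all genes. Under median-of-ratios scaling these counts were 5 lower and 4 higher, then 6 higher and 3 lower. With that scaling 43.0% of all genes were lower and 29.7% higher in egg, then 29.8% higher and 33.8% lower. coq2, of ubiquinone synthesis, had 378 in sperm, no read in egg, 36.1 in 1k-cell embryos and 111 in germ ring embryos. dolk, which makes dolichol phosphate for protein glycosylation, had 96.4, 3.97 (2 reads), 108 and 87.4. nus1, a subunit of the dolichol chain synthase, had 214 in egg, 2952 in 1k-cell and 562 in germ ring embryos. icmt, which methylates prenylated proteins, fell like nus1 in the late step, from 1866 in 1k-cell embryos to 339 at the germ ring (5.51-fold lower, 4.79 to 6.35). In that step 4 of the 14 fell at least 2-fold and 1 rose, where 34.2% and 16% of all genes did.

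The genes whose 4-library pattern was most like that of msmo1, among 9403 genes with a name other than a clone name, were anxa2a, cfdl, icn2, cldn1 and sparc. Likeness was measured as the Euclidean distance between centred log2 profiles over the 4 libraries, and these 5 lay 1.196 to 1.62 from msmo1. anxa2a, an annexin gene, had 298 in sperm, 617 in egg, 2.85 in 1k-cell embryos and 3.01 in germ ring embryos. For cyp7a1a the nearest were upk1a, paplnb, cldn1, lrrc17 and msmo1 itself, at 1.15 to 2.52. upk1a, a uroplakin gene, had 31.8, 726, 3.80 and 0. These neighbours rest on low counts in the embryos, and with a pseudocount of 0.1 only 1 of the 5 for msmo1 and 2 of the 5 for cyp7a1a were the same genes.

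**Figure D4:**
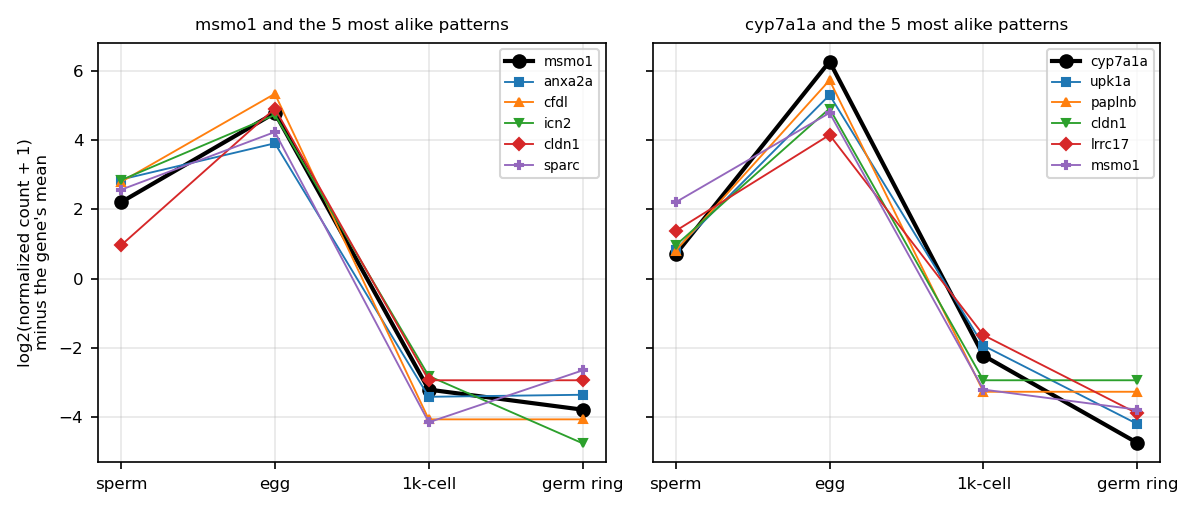
Log2 of normalized count plus 1, minus each gene's mean over the 4 libraries (1 library per point), for msmo1 and cyp7a1a (black) and the 5 genes with the nearest pattern to each. All of them peak in egg; distances from the black line run from 1.196 to 1.62 for msmo1 and from 1.15 to 2.52 for cyp7a1a.

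Marker lists of other cells moved across the same libraries. Of all 14244 gene names, 12319 were at 10 or more in sperm, 9640 in egg, 10123 in 1k-cell embryos and 10461 in germ ring embryos. Of 27 epidermis markers with a row, 26, 23, 10 and 24 were at 10 or more in the same order, and 0, 1, 8 and 2 had no read. The summed normalized counts of these markers were 27651, 228803, 28555 and 254173, and their medians 228, 718, 2.85 and 1806.5. cdh1 alone made up 20074 of the 1k-cell sum. The keratin gene krt5, for example, had 6201 in sperm, 109093 in egg, 82.7 in 1k-cell embryos and 25968 in germ ring embryos. Of the 27, 18 were at least 2-fold lower in 1k-cell embryos than in egg, as msmo1, cyp7a1a and 12.5% of all genes tested were. In germ ring embryos 10 of these 18 were not 2-fold below egg, and 8 were, as msmo1 and cyp7a1a were. Of all genes tested, 19.8% were at least 2-fold below egg at the germ ring. The share of all genes lower in both embryo libraries was not computed. Those 8 included icn2, one of the genes most like msmo1, and the keratin gene krt15, which had 1907 in egg and no read in either embryo library. Of 12 oocyte markers 5 were at least 2-fold lower in 1k-cell embryos than in egg, and all 5 were also 2-fold below egg at the germ ring. The testis somatic list had 2 of 17 lower in both, the liver list 1 of 21 and the follicle list 1 of 14. The red blood cell, yolk syncytial and sperm tail lists had none. The part of epidermis cells or of other RNA of the egg in the values of msmo1 and cyp7a1a was not tested. Of 21 liver markers, 21, 2, 4 and 6 were at 10 or more in the 4 libraries, with sums of 6944, 1096, 139 and 1258. hnf4a, which is also on the yolk syncytial list, made up 1026 of the germ ring sum. In egg 16 of the 21 had no read, including the hepatocyte marker fabp10a, and the 2 above 10 were rbp4 (1069.8) and fga (13.9).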

How the data were processed

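RNA from sperm, egg, 1k-cell and germ ring samples was analysed, 1 library each, grouped by title. The deposited signal per gene is a read count scaled by the authors with TMM, per the file headers; the submitters' processing notes name BWA 0.6.1-r104, edgeR and Zv9 (danRer7). The sources used here name no counter and no annotation. Of all values 100% were whole multiples of 1 step within 0.01 reads, so reads were recovered; with 1 library per group no count test can be run and no genes are called by one.

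For 718 of 14244 names with several entries (15328 in all) the entry with the highest sum was used. Ratios are log2(value + 1), for genes whose higher value is 10 or more, called at 2-fold. Where a library had 0 reads, folds are bounds computed at 3 reads there. Older symbols were matched through RefSeq synonyms (GRCz12tu table). Named were all members, the 2 highest and 2 lowest of each list per comparison, the 5 most alike genes, and, chosen after their values were seen, hmgcrb, sqlea, fdft1, ebp, srebf2, fgf19, krt5, krt15, zp3b, apoeb, apobb.1, slc40a1, apoa4a, abcg1, abcg5, abcg8, fabp10a, rbp4, fga and the low-sum cyp7a1a entry. cdh1 and hnf4a were also named after their values were seen. Members, 5 pathway lists and 8 marker lists were chosen with earlier results of these data known. Marker lists of follicle, testis somatic and red blood cells had medians of 63.1, 346 and 720.2 in sperm and 0, 3.97 and 0 in egg. The 5-hydroxymethylcytosine region lists, bisulfite and TAB samples were not used here. Ratios were tested on simulated data (Python 3.11.15, scipy 1.17.1).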

Additional observations from a re-analysis of the deposited data

How the results depend on the processing

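Alternatives were pseudocounts of 0.1 and 5, no floor or 50, 4-fold calls, summed entries of repeated names, and 3 other scalings (to equal totals, upper quartiles or median ratios). The single gene lower in egg than in sperm, lss, lies at the cutoff: the count was 0 with a pseudocount of 5, at 4-fold and under all 3 scalings, and the log2 ratio of lss turned to 0.26 (median-of-ratios) and 0.0603 (upper-quartile). The members lower at the germ ring than at the 1k-cell stage numbered 2 with no floor or with entries summed, since cyp7a1a then entered. The number highest in egg, an alternative chosen after seeing the data, was 8 after scaling by median-of-ratios and also 8 by upper quartiles. The slc51a ratio of the 1k-cell stage to egg (log2 1.07) turned to -0.21 and -0.27 under these scalings. Of 240 member ratios under alternatives, 177 stayed within their counting interval, 61 moved outside it without a called ratio changing sign and 2 turned. The 177 include ratios that could not move. A different floor changes only which genes are tested, and summing entries can change only cyp7a1a, the only member with 2 entries. When reads were scaled to upper quartiles or to median ratios, most member ratios moved outside the interval or turned. Below the cutoff, hmgcs1 (log2 0.79) and fdps (0.30) at the 1k-cell stage against egg became -0.49 and -0.98 under median-of-ratios scaling. Over all genes, median-of-ratios scaling moved the higher calls in egg against sperm from 1777 to 3668 and at the 1k-cell stage against egg from 5840 to 3246, and the lower calls there from 1338 to 3683, at the germ ring against the 1k-cell stage from 3732 to 2408 and against egg from 2167 to 3615. No paired analysis was possible because each group has 1 library. Depth limits values under about 3 reads, 2.85 to 5.95 normalized counts.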
